A study of Mus musculus with 9 samples.

Results

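Fos, Jun, Egr1, Atf3, Myc, Hspb1 and Cd69 are genes that many cells switch on within a short time of a stimulus or a stress. They were taken by name from a table of microglial transcripts, and all 7 were among its 757 genes. Microglia, macrophage-like cells that live in brain tissue, had been sorted from mice after sham surgery or after a brief filament occlusion of the middle cerebral artery, the model of a transient ischemic attack (TIA). The 9 samples were 3 of Sham (the same operation with no filament inserted) and, with the occlusion, 3 taken 24 h later (TIA 24h) and 3 taken 3 d later (TIA 3d). The strain and exact age of these animals are not given in the labels, and the methods describe young adult mice, males for this assay. In all groups the perfused brains were kept in a buffer with actinomycin D, an inhibitor of transcription, before papain dissociation, and live CD45+ CD11b+ cells were sorted. This gate also admits other myeloid cells. The sources give 3 animals per group without saying that each sample was a single animal, so p values measure the spread between these samples.

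Immediate early genes are transcribed without new protein synthesis, when kinases of the MAPK family and calcium signals act on factors already bound to their promoters. Fos and Jun pair to form the transcription factor AP-1, Egr1 is a zinc finger factor, Atf3 is a stress-induced member of the ATF/CREB family, and Myc drives growth. Hspb1 is a small heat shock protein that binds unfolded proteins, and Cd69 is a surface lectin that marks recently activated lymphocytes. In microglia such genes are also known to be induced by tissue dissociation, which is why transcription inhibitors are used.

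Promoter sequences are shown for members that differed between TIA 3d and TIA 24h, because Fos, Jun and Atf3 moved together and Hspb1 moved the other way. The reference table (RefSeq, GRCm38.p6) held 4 of the 7 members, as windows of 250 bases before to 50 bases after the start of the gene. The lines below give 100 bases each, 5′ to 3′ on the strand of the gene, and capitals mark a match to TGACGTA (either strand), TGANNTCA or GAANNTTC (both read the same on either strand). The stretches end 1 base before the start for Fos (chr12:85473790-85473889, plus strand), Jun (chr4:95052223-95052322, minus strand) and Atf3 (chr1:191183334-191183433, minus strand), and 51 bases before it for Hspb1 (chr5:135887769-135887868, plus strand).
Fos: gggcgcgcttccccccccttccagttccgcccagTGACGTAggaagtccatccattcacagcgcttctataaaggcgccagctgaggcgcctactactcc
Jun: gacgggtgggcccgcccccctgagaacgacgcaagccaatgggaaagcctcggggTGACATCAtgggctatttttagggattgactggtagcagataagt
Atf3: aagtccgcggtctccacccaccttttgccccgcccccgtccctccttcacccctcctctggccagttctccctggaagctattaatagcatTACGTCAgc
Hspb1: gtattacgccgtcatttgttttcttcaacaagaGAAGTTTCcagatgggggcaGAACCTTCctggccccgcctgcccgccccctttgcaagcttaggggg
TGACGTA, letters of the kind bound by ATF/CREB factors, began 66 bases before the start of Fos and stood within 9 bases of that of Atf3, there on the opposite strand. It occurred in 1.27% of the 32851 windows of all genes. TGANNTCA, which covers AP-1-like sites, occurred in Jun as TGACATCA, 45 bases before the start, and once more past the start, against 14.1% of all windows. GAANNTTC, the core of a heat shock element, occurred in Hspb1 as GAAGTTTC and GAACCTTC, 117 and 97 bases before the start, and in Jun as GAATCTTC at 128 bases, against 7.86% of all windows. The motifs were chosen after the sequences had been read, and a match is a description of letters only.

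The values are log2 of counts that the authors normalized to housekeeping probes, and the whole counts behind them could be recovered. The total count of a lane, over all genes, ranged from 6560 to 25582 in Sham and from 7248 to 10929 in TIA 24h. For TIA 3d it was 29200 to 62883, so every TIA 3d lane was deeper than every other lane. Depth and time point therefore cannot be told apart for TIA 3d. The 12 measured microglia markers, among them P2ry12, Tmem119 and Cx3cr1, held 3.35% to 24.9% of the counts of Sham lanes. The TIA 24h lanes had 2.59% to 6.37% and the TIA 3d lanes 19.2% to 22.7%. Oligodendrocyte markers (13 measured) went the other way, with 0.606% to 5.97%, 2.78% to 5.82% and 0.347% to 0.647% in the same order of groups, and the part of these and the following markers in the results was not tested. Of the myeloid cells that the gate admits, monocytes and neutrophils (5 markers measured) held 0.640% to 0.782%, 0.686% to 0.745% and 0.788% to 0.881%, but the markers differed in direction, as 2 picked after their values were seen show. Between the time points, Fcgr3, which microglia also express, was higher by 2.74 (limma adjusted p = 0.0304), whereas the monocyte marker Ccr2 differed by -1.33 (adjusted p = 0.0617). The border macrophage marker Cd163 held 0.0625% to 0.290%, 0.152% to 0.215% and 0.0477% to 0.0822%. Scaled to the lane total, the median of all genes was also lower at TIA 3d, with a log2 difference of -1.19 from TIA 24h. Sham replicates 1 and 3 had the highest and the lowest share of microglia markers within Sham. The highest count of any gene was 32 in Sham replicate 3 and 60 in TIA 24h replicate 2, and 180 to 2963 in the other lanes. Fewer cells of a type and less RNA per cell cannot be told apart in such bulk samples.

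Mean levels of Fos, Jun, Egr1, Atf3 and Myc were highest at TIA 3d, whereas those of Hspb1 and Cd69 were lowest there. Between TIA 3d and TIA 24h, Fos, Jun, Egr1 and Atf3 were higher and Hspb1 was lower past the threshold, an adjusted p of 0.05 in limma, and Myc and Cd69 did not pass. This count of 5 of 7 stood beside 19.2% of all 757 genes called in this contrast (4 of 7 higher, against 11.6% of all genes, and 1 of 7 lower, against 7.53%). The groups did not overlap in these 5 genes, against 48.3% of all genes (4 above, against 22.1%, and 1 below, against 26.3%). All 7 were at an unadjusted p under 0.05, against 40.2% of all genes.

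Against Sham, no member passed at either time point. At TIA 3d the share of all genes called was 0%, with 6 of 7 members at an unadjusted p under 0.05 (19.6% of all genes). In all 7 members the TIA 3d samples lay wholly above or wholly below Sham, against 24.2% of all genes (5 above, against 15.1%, and 2 below, against 9.11%). At TIA 24h against Sham the share called was also 0%. There 0 of 7 members were at an unadjusted p under 0.05 (7.53% of all genes), and the groups overlapped in every member (9.78% of all genes did not overlap). In the moderated F test over the 3 groups 0% of all genes and 0 of 7 members passed, with adjusted p values from limma of 0.0533 for Egr1 and Atf3 to 0.178 for Cd69, and 6 of 7 were at an unadjusted p under 0.05 (31% of all genes). Both contrasts against Sham use the same Sham samples.

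**Figure D1:**
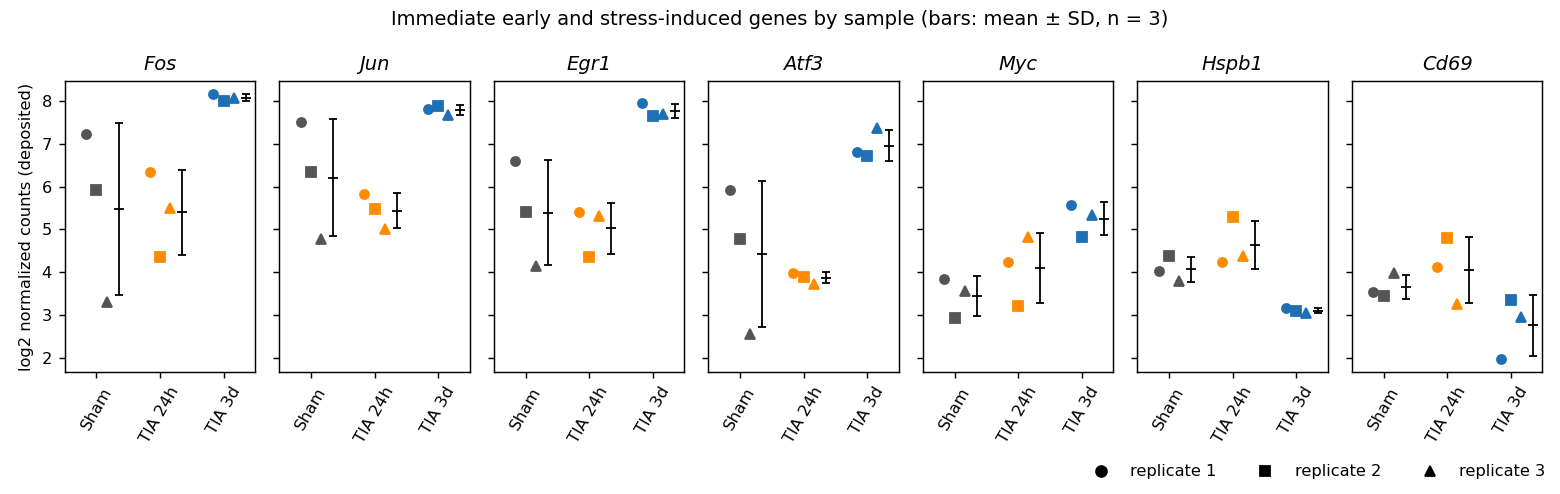
Deposited log2 normalized counts of each gene in each sample. Symbols give the replicate number, which the labels do not tie to a pair or a batch, and bars give the mean ± SD of 3 samples. The TIA 3d samples sit above the TIA 24h samples for Fos, Jun, Egr1 and Atf3 and below them for Hspb1, and Sham spreads widest for Fos, from 3.30 to 7.23.

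Fos, the partner of Jun in AP-1, was at log2 values of 7.23, 5.91 and 3.30 in Sham (157, 55 and 5 counts). The TIA 24h samples had 6.33, 4.35 and 5.51 (51, 11 and 24 counts) and the TIA 3d samples 8.16, 8.0 and 8.07 (508, 300 and 489 counts). The TIA 3d samples were all above the others and lay within 0.16 of each other, whereas Sham spanned 3.94 and contained the whole range of TIA 24h. From TIA 24h to TIA 3d, Fos rose by 2.68 on the log2 scale, or 6.41-fold (SE 0.80, limma adjusted p = 0.039). Against Sham the difference was 2.60 at TIA 3d (SE 0.80, adjusted p = 0.158) and -0.09 at TIA 24h (SE 0.80, adjusted p = 0.987). Within its lane, Fos stood at the 24.0 percentile of the genes in Sham replicate 3 and at the 96.6 and 95.6 percentiles in the other Sham lanes. In Sham replicate 3 the highest count of any gene was 32, against 1118 and 493 in Sham replicates 1 and 2.

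Jun, the other AP-1 subunit, was at 7.51, 6.34 and 4.78 in Sham (190, 74 and 14 counts). The TIA 24h samples had 5.83, 5.47 and 5.01 (36, 24 and 17 counts), and the TIA 3d samples had 7.80, 7.89 and 7.66 (397, 278 and 369 counts). Sham replicate 1 lay 0.15 below the lowest TIA 3d sample, and the lowest Sham sample lay below all of TIA 24h. The rise from TIA 24h to TIA 3d was 2.35 (5.09-fold, SE 0.58, limma adjusted p = 0.0245). Against Sham, the difference was 1.57 at TIA 3d (SE 0.58, adjusted p = 0.167) and -0.77 at TIA 24h (SE 0.58, adjusted p = 0.746). Jun stood high in every lane, from the 85.6 to the 97.8 percentile of the genes measured, and in this its lanes differed less than those of Fos or Atf3.

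Egr1, a zinc finger factor induced through serum response elements, was at 6.60, 5.41 and 4.14 in Sham (101, 39 and 9 counts). TIA 24h had 5.41, 4.35 and 5.31 (27, 11 and 21 counts), and the TIA 3d samples had 7.96, 7.65 and 7.70 (444, 235 and 379 counts). As for Fos, TIA 3d stood apart from both other groups and Sham enclosed TIA 24h. Egr1 rose 6.71-fold between the time points, a log2 difference of 2.75 (SE 0.56, limma adjusted p = 0.0229), which had the smallest p of the 7 members and was number 7 among all genes in order of p. Against Sham, it differed by 2.39 at TIA 3d (SE 0.56, adjusted p = 0.114, number 6 among all genes) and by -0.36 at TIA 24h (SE 0.56, adjusted p = 0.87).

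Atf3, which is induced by many kinds of cell stress, was at 5.92, 4.77 and 2.56 in Sham (63, 25 and 3 counts). At TIA 24h it was at 3.98, 3.89 and 3.73, with only 10, 8 and 7 counts, and at TIA 3d at 6.80, 6.70 and 7.38 (198, 122 and 303 counts). The TIA 24h samples were within 0.25 of each other and just below the median gene of their lanes, at the 41.0 to 45.0 percentile, whereas all TIA 3d samples were at or above the 94.5 percentile. On the deposited scale the difference between them, 3.09 or 8.54-fold (SE 0.66, limma adjusted p = 0.0229), was the largest among the 7 genes in absolute log2 value. Scaled to the lane total, Hspb1 (-2.48) and Cd69 (-2.24) differed by more than Atf3 (2.15). Background was not measured, so with such low counts at TIA 24h the size of the 8.54-fold difference is uncertain. With 1 count added to each recovered count the Atf3 difference was 2.94 (limma adjusted p = 0.0125). It did not pass with quantile normalization (2.45, adjusted p = 0.0799), the lane total as covariate (-0.14, adjusted p = 0.987) or relative to the microglia markers (0.04, adjusted p = 0.97). Against Sham, Atf3 differed by 2.54 at TIA 3d (SE 0.66, adjusted p = 0.122) and by -0.55 at TIA 24h (SE 0.66, adjusted p = 0.843).

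Myc, a factor that drives cell growth and division, showed another order, with Sham lowest. Its values were 3.85, 2.93 and 3.56 in Sham (15, 7 and 6 counts). The TIA 24h samples had 4.24, 3.21 and 4.83 (12, 5 and 15 counts), and the TIA 3d samples had 5.58, 4.82 and 5.34 (85, 33 and 74 counts). TIA 3d lay above Sham in 3 of 3 samples, whereas TIA 24h overlapped both neighbours in the order. The differences were 1.80 for TIA 3d against Sham (3.48-fold, SE 0.48, limma adjusted p = 0.131), 1.15 for TIA 3d against TIA 24h (SE 0.48, adjusted p = 0.0952) and 0.65 for TIA 24h against Sham (SE 0.48, adjusted p = 0.746). None of the 3 passed, and the 95% interval of the difference between time points ran from 0.11 to 2.19.

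Hspb1, the small heat shock protein, was at 4.03, 4.38 and 3.78 in Sham (17, 19 and 7 counts). At TIA 24h the values were 4.24, 5.28 and 4.38 (12, 21 and 11 counts), and TIA 3d had 3.17, 3.09 and 3.04 (16, 10 and 15 counts). The TIA 3d samples were the lowest in normalized value, but their raw counts overlapped those of both other groups. The normalized value of Hspb1 was lower at TIA 3d by a log2 difference of -1.53 from TIA 24h (SE 0.41, limma adjusted p = 0.0308). Background was not measured, and a count that stays the same in deeper lanes gives a lower normalized value, so a flat signal near background and a fall of Hspb1 cannot be told apart here. It differed from Sham by -0.96 at TIA 3d (SE 0.41, adjusted p = 0.217) and by 0.57 at TIA 24h (SE 0.41, adjusted p = 0.742). Endothelium and mural cells are known to contain Hspb1 and should be left out by the CD45+ CD11b+ gate. Their 6 measured markers held 0.211% to 0.747% of the counts of Sham lanes, 0.635% to 0.694% for TIA 24h and 0.111% to 0.202% for TIA 3d, with 2 to 20 counts per gene. Markers of other cells that the gate should leave out, neurons (12 measured, 0.961% to 1.41% for TIA 24h and 0.215% to 0.432% for TIA 3d), astrocytes (5 measured, 0.669% to 1.18% and 0.164% to 0.314%) and B cells (3 measured, 0.311% to 0.454% and 0.0763% to 0.113%), also held a smaller share at TIA 3d than at TIA 24h. Scaled to the lane total, the median of all genes was lower at TIA 3d as well, with a log2 difference of -1.19 from TIA 24h. The part of these cells in the Hspb1 result was not tested.

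Cd69, the lymphocyte activation marker, was at 3.52, 3.45 and 3.97 in Sham (12, 10 and 8 counts). The TIA 24h samples had 4.12, 4.79 and 3.24 (11, 15 and 5 counts), and the TIA 3d samples had 1.97, 3.36 and 2.94 (7, 12 and 14 counts). In every lane but 1 it ranked no higher than the 52.7 percentile, and the exception was TIA 24h replicate 2, at 82.2. TIA 3d was lower than TIA 24h by a log2 difference of -1.29 (SE 0.50, limma adjusted p = 0.0757) and differed from Sham by -0.89 (SE 0.50, adjusted p = 0.306), and TIA 24h differed from Sham by 0.40 (SE 0.50, adjusted p = 0.843). None of these passed. The gate should leave out T cells, whereas NK cells can carry CD11b. The 15 measured markers of T and NK cells stood low, with 1 to 27 counts per gene in any lane. Together they held 0.512% to 2.01% of the counts of Sham lanes, 1.14% to 1.58% for TIA 24h and 0.219% to 0.579% for TIA 3d. The median of all genes scaled to the lane total also differed by -1.19 between TIA 3d and TIA 24h. The part of T and NK cells in the Cd69 values was not tested.

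**Figure D2:**
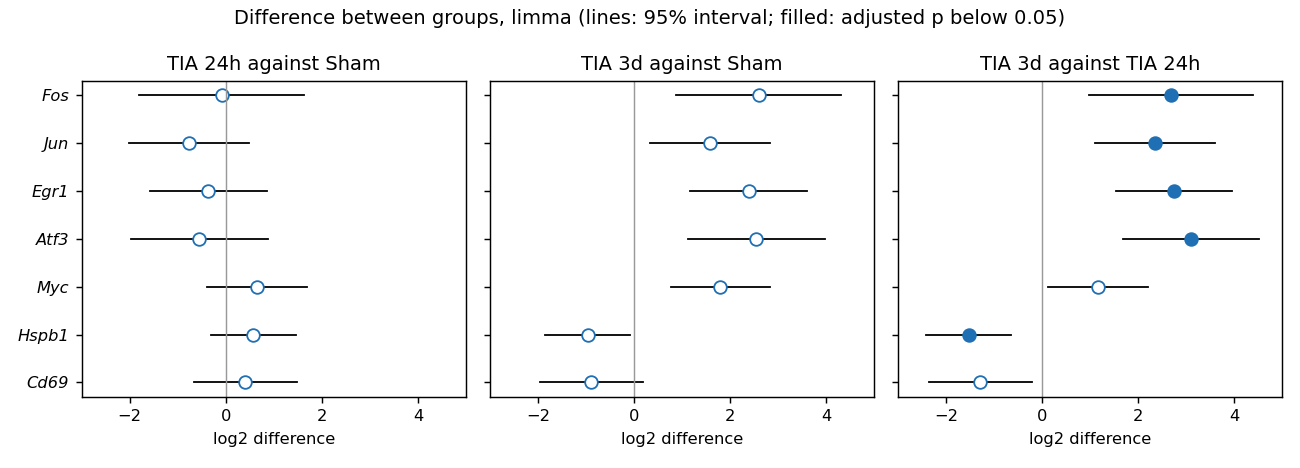
Log2 differences of each gene in the 3 contrasts, with 95% intervals from limma; filled points passed an adjusted p of 0.05 over all 757 genes. Points are filled only between TIA 3d and TIA 24h, for Fos, Jun, Egr1 and Atf3 (2.35 to 3.09) and for Hspb1 (-1.53).

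The counts of the members followed the depth of the lanes unequally. A slope of log2 count on log2 total of 1 means that a gene keeps its share of the lane. Over the 9 lanes this slope was 1.87 for Fos, 1.56 for Jun, 1.72 for Egr1 and 1.91 for Atf3, above that of 94.7% to 98.0% of all genes, and 1.09 for Myc. For Hspb1 and Cd69 it was 0.12 each, below the 0.47 of the median gene, and 15.3% and 14.7% of all genes had a lower slope still. In the plot of counts against the lane total, the counts of Hspb1 and Cd69 stayed between 5 and 21 in every lane while the totals differed 9.59-fold. These slopes are descriptions over lanes in which depth, microglia markers and time point moved together.

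**Figure D3:**
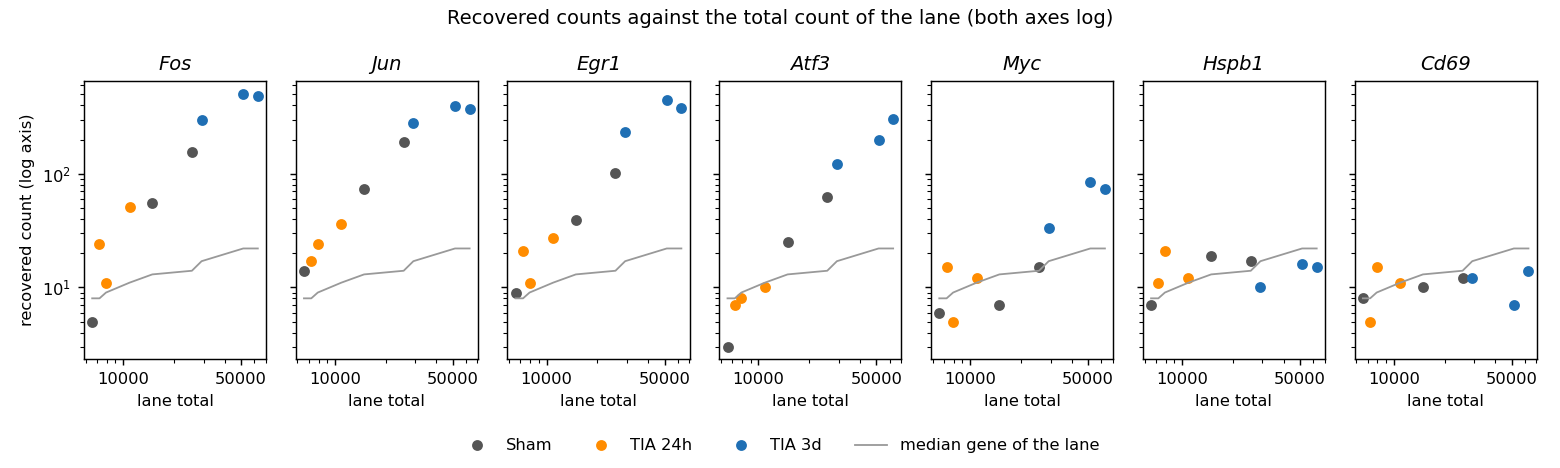
Recovered count of each gene against the total count of its lane, both on log axes, with the count of the lane's median gene as a grey line. Fos, Jun, Egr1 and Atf3 climb from near the line to 122 to 508 counts in the TIA 3d lanes, whereas Hspb1 and Cd69 stay between 5 and 21 counts.

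Lanes of like depth were set side by side after the totals had been seen. Sham replicate 1 (25582 counts, 24.9% of them on microglia markers) and TIA 3d replicate 2 (29200 counts, 22.0%) were close in both respects. Of 10000 counts of the lane, Fos took 61.4 in the Sham lane and 103 in the TIA 3d lane, a ratio of 1.67 (95% exact interval 1.38 to 2.04). The ratio was 1.28 for Jun (1.06 to 1.55), 2.04 for Egr1 (1.61 to 2.60), 1.70 for Atf3 (1.24 to 2.34) and 1.93 for Myc (1.02 to 3.82). For Hspb1 it was 0.515 (0.211 to 1.19) and for Cd69 0.876 (0.360 to 2.13), both too few counts to show a difference. These intervals cover counting error only, and 1 lane against 1 compares those lanes and not the conditions.

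The contrast between the time points depended on the scaling. With counts divided by the lane total, the differences between TIA 3d and TIA 24h were 1.73 for Fos (limma adjusted p = 0.0549), 1.40 for Jun (0.0425), 1.80 for Egr1 (0.0168), 2.15 for Atf3 (0.0143), 0.20 for Myc (0.744), -2.48 for Hspb1 (0.00931) and -2.24 for Cd69 (0.0128). That scaling placed the median of all genes at -1.19, against -0.25 as deposited. Of all 757 genes 34 were higher and 310 lower past the threshold under it, against 88 and 57 as deposited. Each sample was also centred on the mean of the 12 microglia markers, a setting chosen after seeing the data. The differences were then -0.37 for Fos, -0.71 for Jun, -0.31 for Egr1, 0.04 for Atf3 and -1.90 for Myc, with limma adjusted p values of 0.0991 to 0.97. Hspb1 (-4.59) and Cd69 (-4.35) both passed there (adjusted p = 0.00423 each), as did 597 of all 757 genes, every one of them lower, and the median of all genes stood at -3.30. Relative to the microglia markers, Jun lay between -1.17 and 0.52 in every lane. Fos lay between -1.77 and -1.16 in Sham, and its TIA 24h samples (-1.22 to 1.02) enclosed those of TIA 3d (-0.52 to -0.30). On that scale Fos, Jun, Egr1 and Atf3 did not pass between the time points. TIA 3d against Sham was 1.07 for Fos (adjusted p = 0.392), 0.86 for Egr1 (0.48) and 1.01 for Atf3 (0.402), and 0.05 for Jun (0.972). It was 0.27 for Myc (0.855), -2.49 for Hspb1 (0.25) and -2.42 for Cd69 (0.25), where the median of all genes was -1.54 and no gene passed.

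**Figure D4:**
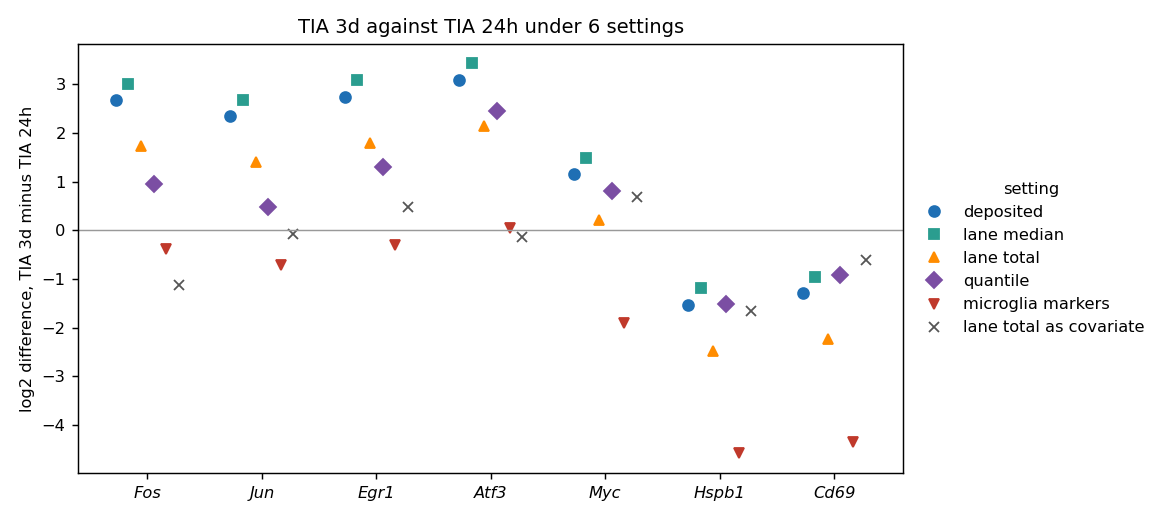
Log2 difference of each gene between TIA 3d and TIA 24h as deposited, under 4 other scalings and with the lane total as a covariate. Atf3 runs from 3.43 with lane medians to -0.14 with the covariate, and Hspb1 and Cd69 are below 0 throughout.

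The calls between the time points depended on single samples. None of the 7 members passed without replicate 2 of TIA 24h, without its replicate 3, or without replicate 1 or 3 of TIA 3d, and neither did any of the 757 genes. Without TIA 3d replicate 2, Jun, Egr1 and Atf3 passed (114 of all 757 genes), and without Sham replicate 2 all but Fos of the 5 did (90 of all genes, adjusted p = 0.0502 for Fos). Against Sham, Fos, Jun, Egr1, Atf3 and Myc passed at TIA 3d once Sham replicate 1 was left out, with differences of 3.47, 2.22, 2.99, 3.29 and 2.00 and adjusted p values of 0.00815 to 0.0289. Of all 757 genes, 84 passed there (73 higher and 11 lower). Sham replicate 1 was the deepest Sham lane (25582 counts), with a mean log2 of the microglia markers of 8.68, against 8.37 to 8.52 at TIA 3d. The Sham lanes that remained had 14897 and 6560 counts and marker means of 7.07 and 5.06, so they were less like TIA 3d in both respects.

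The genes most like each member over the 9 samples, by Pearson's r on the deposited log2 values, are given next. They are descriptions over lanes that share depth, and the r after removing the log2 lane total is given second. For Fos they were Ncor1 (r 0.98, then 0.90), Egr1 (0.97, 0.79) and Eif1 (0.96, 0.88). For Jun they were Mpeg1 (0.99, 0.88), Ctss (0.99, 0.86) and Ctsf (0.98, 0.83), a perforin-like protein and lysosomal proteases of macrophages and microglia. For Egr1 they were Rps9 (0.97, 0.61), Tyrobp (0.97, 0.62) and Fos (0.97, 0.79), and for Atf3 Tyrobp (0.99, 0.80), Ctsf (0.98, 0.66) and Lgmn (0.98, 0.74). Tyrobp encodes the adaptor of TREM2 and Lgmn another lysosomal protease. Myc was nearest to Nfkbie (0.94, 0.91), an inhibitor of NF-kB, to Spint1 (0.90, 0.88) and to the chemokine Ccl2 (0.89, 0.81). Hspb1 was nearest to Atm (0.93, 0.83), Siglec1 (0.92, 0.85) and Ezh2 (0.91, 0.80), and Cd69 to Trpa1 (0.94, 0.87), Cd70 (0.93, 0.91) and Tradd (0.89, 0.76).

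Among the members themselves, r was 0.93 to 0.97 for the 6 pairs of Fos, Jun, Egr1 and Atf3, and 0.40 to 0.79 once the lane total was removed. The pair of AP-1 subunits, Fos and Jun, fell from 0.93 to 0.50, and Hspb1 and Cd69 from 0.75 to 0.42. Myc correlated with the 4 factors at 0.53 to 0.78, and without the lane total at -0.37 with Jun, 0.01 with Atf3, 0.35 with Fos and 0.66 with Egr1.

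Other genes of the same responses were few on the panel. Of 41 listed early response genes 10 were measured, and between TIA 3d and TIA 24h, 3 of them were higher past the threshold, 1 was lower and 6 did not pass. Of all genes 11.6% were higher and 7.53% lower past the threshold, and over the 3 lists described here 6 of 41 genes passed, against 19.2% of all genes. The early response genes' median difference was 0.45, against -0.25 for all genes. The chemokine Ccl3 was higher by 2.60 (SE 0.74, limma adjusted p = 0.0373) and its relative Ccl4 by 1.88 (SE 0.59, adjusted p = 0.0455). Nfkbia, the NF-kB inhibitor that is itself an early NF-kB target, was higher by 1.89 (SE 0.61, adjusted p = 0.0474), where 8, 7 and 4 counts became 75, 34 and 94. The gene that was lower, named after its value was seen, was the cytokine Il1b (-1.77, SE 0.58, adjusted p = 0.0494). At the other contrasts 0 of 10 passed, and the smallest p was that of Nfkbia, with 1.55 at TIA 24h (adjusted p = 0.647) and 3.44 at TIA 3d against Sham (adjusted p = 0.0558).

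Of 35 listed stress and damage response genes 18 were measured, and between the time points 1 was higher, 1 was lower and 16 did not pass (19.2% of all genes passed), with a median difference of -0.04. Both that passed are stress-induced sestrins, and they moved in opposite directions. Sesn1 was higher at TIA 3d by 1.94 (SE 0.59, limma adjusted p = 0.0421). Its 12, 3 and 2 counts became 51, 19 and 89, and its normalized values overlapped. Sesn2 differed by -1.57 (SE 0.52, adjusted p = 0.0497). Its counts were 13, 8 and 6, then 9, 11 and 5, so its normalized values parted where its raw counts overlapped. No gene of this list passed against Sham, where the smallest p values were those of Sesn2 at TIA 24h (1.44, adjusted p = 0.647) and of Nqo1, an antioxidant enzyme, at TIA 3d (-1.87, adjusted p = 0.158). Of 37 listed kinases and factors that signal to early response genes 13 were measured, and 0 passed in any contrast, with a median difference of 0.03 between the time points. The stress kinase Mapk14 (p38 alpha) had the smallest p there (1.31, adjusted p = 0.0551) and at TIA 3d against Sham (0.89, adjusted p = 0.28), and Mapk12 at TIA 24h against Sham (0.80, adjusted p = 0.722).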

How the data were processed

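The deposited values are log2 of nCounter counts for a mouse neuroinflammation panel. According to the methods, ROSALIND scaled each lane to housekeeping probes picked by geNorm (geometric mean), and genes under the top negative control were dropped. Whether the deposited table had that filter is not given in the sources used here. In each lane, 2 to the power of each value was a whole multiple of 1 step within 0.01 counts for 100% of values, which gave the counts. No control probe was used here, so background was not measured.

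Each of 757 genes was fitted with a mean per group over 9 samples by lmFit and eBayes of limma 3.58.1 in R 4.3.3 (7.23 prior degrees of freedom), with two-sided contrasts and p adjusted by Benjamini-Hochberg over all genes, threshold 0.05. The fit was tested on simulated data. The members and lists were chosen with earlier results of these data known. Named genes were the members, the 3 genes with the highest r to each, and, per list and contrast, up to 3 genes past the threshold with the largest differences, or the 1 with the smallest p. Alternatives were other scalings (median, lane total, quantile), a filter below the 0.25 quantile, 1 count added, a replicate block, the lane total as covariate, other variance models, voom on recovered counts, fits of 2 groups only and leaving out each sample. The permutation-based test of the authors was not run. Symbols were matched to a RefSeq table (750 current, 7 older), used for names only.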

Additional observations from a re-analysis of the deposited data

Results flagged for a closer look

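No member or list gene passed against Sham at either time point. The difference between the time points, tested as TIA 3d against TIA 24h in limma, passed for Fos (2.68, adjusted p = 0.039), Jun (2.35, adjusted p = 0.0245), Egr1 (2.75, adjusted p = 0.0229), Atf3 (3.09, adjusted p = 0.0229) and Hspb1 (-1.53, adjusted p = 0.0308). The same held for the named list genes Ccl3 (2.60, adjusted p = 0.0373), Nfkbia (1.89, adjusted p = 0.0474), Ccl4 (1.88, adjusted p = 0.0455), Sesn1 (1.94, adjusted p = 0.0421) and Sesn2 (-1.57, adjusted p = 0.0497), and for Il1b (-1.77, adjusted p = 0.0494), which was named after its value was seen. All TIA 3d lanes were deeper than all TIA 24h lanes, and the part of depth in these differences was not tested apart from the alternatives given for the processing.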

How the results depend on the processing

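Between TIA 3d and TIA 24h, 5 members passed as deposited (145 of all 757 genes). With quantile normalization 0 members passed (7 of all genes), as with the lane total as covariate (0) or the ordinary linear model (0). With microglia markers as the base, a setting added after seeing the data, 2 passed (597 of all 757 genes). Quantile normalization gave 0.96 for Fos, 0.49 for Jun, 1.30 for Egr1, 2.45 for Atf3 and -1.51 for Hspb1. The covariate gave -1.12 for Fos, -0.071 for Jun, 0.48 for Egr1, -0.14 for Atf3 and -1.66 for Hspb1, and the ordinary linear model kept the differences at 2.68, 2.35, 2.75, 3.09 and -1.53. Fos also fell short when scaled to the lane total (1.73) and in voom (1.69), Jun in voom (1.38) and Hspb1 with median centring (-1.19, adjusted p = 0.0569). Relative to the microglia markers, Fos was at -0.37, Jun at -0.71, Egr1 at -0.31, Atf3 at 0.039 and Myc at -1.90. Cd69 passed there (-4.35, with 597 of all 757 genes) and scaled to the lane total (-2.24, with 344 genes, 310 of them lower). It also passed with 1 count added (-1.32, with 203), with array weights (-1.64, with 314) and in voom (-2.33, with 385, of which 366 were lower). Myc passed with array weights (1.34).

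Against Sham at TIA 3d, 2 members passed with an intensity trend and robust prior (Atf3, 2.54, and Myc, 1.80, with 8 of all 757 genes). With array weights 6 members and 174 of all genes passed (Fos 2.28, Jun 1.45, Egr1 2.41, Atf3 2.20, Myc 2.28, Hspb1 -1.15). The array weights of Sham replicates 1, 2 and 3 were 0.454, 2.74 and 0.341, so in that setting the Sham mean rested mostly on replicate 2. The covariate turned Fos to -0.16 and Jun to -0.18 and gave 0.74 for Egr1, 0.20 for Atf3 and -0.40 for Cd69. Quantile normalization gave 1.60 for Fos, 0.48 for Jun, 1.33 for Egr1 and -0.59 for Cd69, with Atf3 at 1.72. Scaled to the lane total, Fos was at 1.84, Jun at 0.82, Egr1 at 1.63, Atf3 at 1.78, Myc at 1.04, Hspb1 at -1.72 and Cd69 at -1.65, and none passed. At TIA 24h no member passed under any alternative, and signs turned as follows, from -0.09 for Fos, -0.77 for Jun, -0.36 for Egr1 and -0.55 for Atf3. Fos was at 0.64 with quantile normalization, 0.10 scaled to the lane total, 0.96 with the covariate, 1.44 against the microglia markers and 0.18 in voom. The marker scaling placed the median of all genes at 1.68 in this contrast, so the signs that turned under it follow from a shift common to all genes. Egr1 was at 0.034, 0.26 and 1.17 under quantile normalization, the covariate and the markers, Atf3 at 0.34 and 0.97 under the covariate and the markers, and Jun at 0.75 under the markers.

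Members past the F test, with genes of all 757 in parentheses, numbered 3 with median centring (52), 4 scaled to the lane total (181), 2 with the low-value filter (40 of 568), 5 with 1 count added (70), 3 with a trend (50), 7 with array weights (295), 2 against the microglia markers (469), 3 in voom (294) and 0 as deposited (0). The replicate number as a block gave 5 members (54 of all genes, against 0). Between the time points it gave 5 members (140 of all genes), as without it (145). The deviations of samples with the same number had r of -0.24 to 0.27 over 9 pairs, 5 of them over 0.1, with 8 of 18 best matches on the own number. With 3 samples per group these values can neither show nor exclude a shared batch.

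Of the 41 measured genes of the 3 lists, 6 passed between the time points (145 of all 757 genes), and 0 with quantile normalization (7), the covariate (0) or the ordinary model (0), 13 scaled to the lane total (344), 13 with array weights (314), 11 with 2 groups only (249), 33 against the microglia markers (597) and 17 in voom (385). Against Sham at TIA 3d, 0 passed as deposited (0 of all genes), 1 with the filter (1), 2 with 1 count added (2), 1 with the replicate block (1), 3 with a trend (8) and 7 with array weights (174).

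Leaving out 1 sample gave 0 to 6 members in the F test (0 to 136 of all 757 genes), 0 to 5 at TIA 3d against Sham (0 to 84) and 0 to 5 between the time points (0 to 226), and 0 to 3 and 0 to 10 list genes in these contrasts. The ranges between the time points were 2.16 to 3.15 for Fos, 2.13 to 2.54 for Jun, 2.41 to 2.94 for Egr1, 2.89 to 3.22 for Atf3, 0.71 to 1.52 for Myc, -1.70 to -0.90 for Cd69 and -1.73 to -1.21 for Hspb1. At TIA 3d against Sham they were 1.50 to 3.47 for Fos, 0.86 to 2.22 for Jun, 1.76 to 2.99 for Egr1, 1.61 to 3.29 for Atf3 and 1.54 to 2.01 for Myc. For Hspb1 the range was -1.10 to -0.80 and for Cd69 -1.19 to -0.50. At TIA 24h against Sham the ranges were -1.18 to 0.79 for Fos, -1.49 to -0.12 for Jun, -0.98 to 0.25 for Egr1 and -1.48 to 0.20 for Atf3. They were 0.28 to 1.09 for Myc, 0.25 to 0.77 for Hspb1 and 0.03 to 0.81 for Cd69. The sign turned without Sham replicate 1 for Fos, Egr1 and Atf3, and for Fos also without Sham replicate 2 or TIA 24h replicate 2. The cause of these shifts was not tested. Counts were 5 to 21 for Myc, Hspb1 and Cd69 in each Sham and TIA 24h lane and 7 to 10 for Atf3 at TIA 24h, which limits their precision.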
